A study of Mus musculus with 9 samples.

Results

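The question addressed was what an antisense oligonucleotide does to the spinal cord transcriptome whatever its target. The 6 libraries from mice given either of 2 oligonucleotides were pooled as 1 group and set against the 3 libraries from mice given saline, so that all 9 libraries of the series entered. All mice were wild-type females of the C57Bl/6 strain and 10 weeks old. Each received 10 µl into the right lateral ventricle by stereotactic injection. The saline group received no oligonucleotide, the control ASO group 500 µg of ASO #456835, and the C9orf72 ASO group 500 µg of ASO #571883, which targets the mouse C9orf72 transcript. Spinal cord was taken 2 weeks after the injection. Of 14831 genes in the table, the 14430 with a value of 0.5 or more in at least 3 libraries were tested. Values are RPKM (read numbers divided by transcript length and by sequencing depth), and the authors' table holds 0.1, called the floor here, in place of anything under 0.5. The labels do not state whether libraries within a group derive from different animals, so p-values measure only the spread between these libraries, which may be technical.

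Antisense oligonucleotides (ASOs) are short, chemically modified nucleic acid strands that enter cells by endocytosis and pair with a complementary RNA. Many designs form a duplex that the nuclease RNase H1 cleaves, and their backbone also binds a range of nuclear and membrane proteins regardless of sequence. Nucleic acid strands can further be read by innate immune receptors, which induce interferon and cytokine genes. In the central nervous system ASOs are delivered into the cerebrospinal fluid, from which neurons and glia take them up. The labels give neither the chemistry nor the base sequence of these ASOs.

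Libraries held markers of cell types found in spinal cord, though none of those given here is particular to that tissue. In saline the neuronal gene Snap25 stood at 1651 ± 47.9 RPKM, the myelin gene Mbp at 2399 ± 357 RPKM, the astrocyte gene Gfap at 719 ± 122 RPKM and the motor neuron gene Chat at 6.17 ± 0.436 RPKM (SD, n = 3). The implied depth was 90.3 to 124.1 M reads per library. On the first principal component, which held 21.03% of the variance, saline libraries lay between -5.2 and 14.2, control ASO libraries between 6.3 and 13.8 and C9orf72 ASO libraries between -19.6 and -10.2. The control ASO libraries thus lay inside the saline range and the C9orf72 ASO libraries below it. On the second component, with 18.2% of the variance, saline replicate 1 stood apart at -24.1.

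Against saline, a single gene passed the threshold for a call in the pooled ASO libraries. Ide lay lower, and it is 1 of 14430 genes (0.00693%) at a Benjamini-Hochberg adjusted p under 0.05 (limma). No gene rose past the threshold (0%), while 209 genes (1.45%) lay higher and 777 (5.38%) lower at an unadjusted p under 0.05. All 6 ASO libraries lay above the 3 saline libraries for 134 genes (0.929%) and below them for 326 (2.26%). The lower share of the genes at an unadjusted p under 0.05 was 78.8%, but 54.5% after quantile normalization, 51.0% after scaling to the median log ratio and 50.3% once trends with transcript length and GC content were removed. It was 53.4% without saline replicate 1 and 61.6% without saline replicate 2. Across 13970 genes with a known length, the log2 difference had a correlation of -0.31 with GC content, given as a description since genes are not independent.

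The differences measured were small. The median over all genes tested was -0.02 on the log2(RPKM + 0.1) scale used throughout. The 95% interval reached a median of 0.165 to either side, and in 91.4% of genes the whole interval lay within 0.5 of 0. Of 85 genes with a difference of 1 or more in either direction, 84 had at least 1 library at the floor. The exception was Snord82, a small nucleolar RNA gene, at 5.20 to 9.76 RPKM in saline and 1.153 to 7.70 RPKM in ASO libraries (log2 difference -1.17, adjusted p = 0.73, limma).

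**Figure D1:**
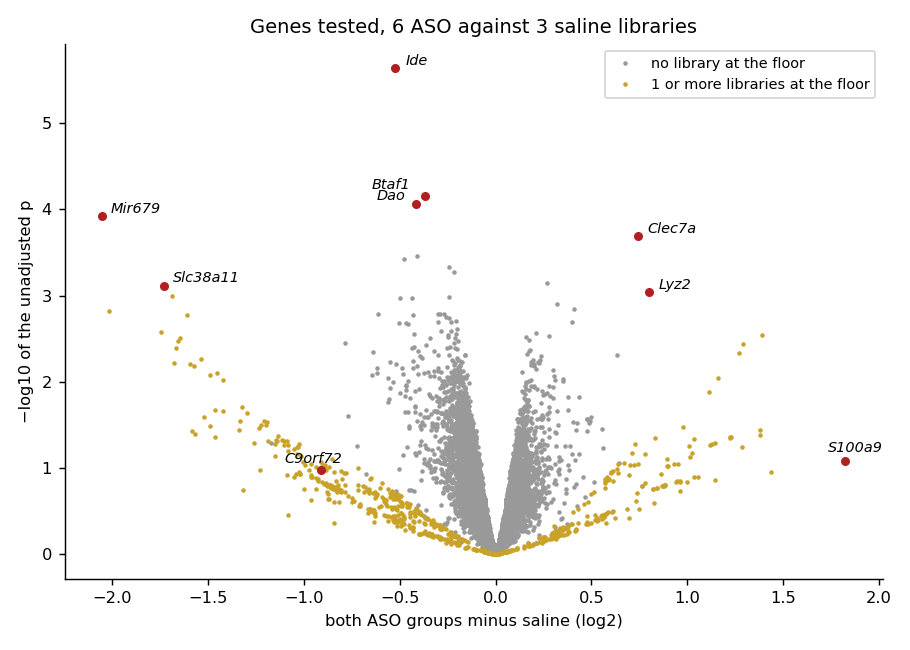
Difference between the 6 ASO and 3 saline libraries (x axis, log2) against the negative log10 of the unadjusted limma p (y axis) for the 14430 genes tested, with yellow points for genes that have a library at the floor. Ide stands above all others, and nearly all differences beyond 1 belong to genes with a library at the floor.

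Ide (ENSMUSG00000056999) encodes insulin-degrading enzyme, a zinc metalloprotease that cleaves insulin, amyloid beta and other small peptides. It measured 15.5, 18.8 and 16.9 RPKM in the saline libraries, 11.7, 11.97 and 11.5 RPKM after the control ASO and 12.4, 12.2 and 11.1 RPKM after the C9orf72 ASO. The lowest saline library was above the highest ASO library, and the libraries of both ASOs interleaved. Means were 17.1 ± 1.63 RPKM in saline (SD, n = 3) and 11.8 ± 0.474 RPKM with ASO (SD, n = 6), which is 69.1% of saline. Ide was lower by 0.53 on the log2 scale (SE 0.06, 95% interval -0.66 to -0.39, adjusted p = 0.0333, limma). The exact permutation test over 84 splits gave its smallest possible p of 0.0119, two-sided. Ide was picked for the smallest limma p of 14430 genes in these same libraries, so the permutation p is not separate support.

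Ide stood at like values in the libraries of both oligonucleotides. The control ASO stood at -0.54 against saline (adjusted p = 0.0883) and the C9orf72 ASO at -0.51 (adjusted p = 0.031), from a limma fit of 3 groups in which both share the saline libraries. The difference between the ASOs was 0.03 with a 95% interval of -0.13 to 0.19 (adjusted p = 0.897, limma). The call of Ide was lost in 8 of 9 fits that left out 1 library and held without saline replicate 1. In those 9 fits the log2 difference ran from -0.59 to -0.46 and, over all alternatives, the adjusted p from 7.6e-04 to 0.162.

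Of the 19 tested members of a list of amyloid- and insulin-degrading peptidases that holds Ide, the others did not pass the threshold. The list's median was -0.05, beside -0.02 over all genes. Ece1 and Ece2, endothelin-converting enzymes that also cleave amyloid beta, had ASO libraries wholly below saline at log2 differences of -0.19 and -0.10. With Ide, 3 of 19 members (15.8%) had this arrangement, beside 2.26% of all genes, given as a description without a test. Ide was picked from these same libraries, and the list was chosen with earlier results known. The share therefore gives no support for a change of the list.

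Btaf1 (ENSMUSG00000040565), which encodes an ATPase that removes TATA-binding protein from DNA, had the second smallest p and lies near Ide in gene order. Its level was 5.99, 7.04 and 6.30 RPKM in saline, 4.94, 5.16 and 5.03 RPKM after the control ASO and 5.11, 4.92 and 4.65 RPKM after the C9orf72 ASO. All ASO libraries lay below all saline libraries. The log2 difference was -0.37 (SE 0.06, adjusted p = 0.416, limma), and it passed the threshold only once length and GC trends were removed (-0.41, adjusted p = 0.00268). As for Ide, saline replicate 2 was the highest library.

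The genes between and around Ide and Btaf1, chosen for display after these values were seen, were taken in the order of protein-coding genes on the chromosome. Between Btaf1 and Ide lie Cpeb3, an RNA-binding regulator of translation, at a log2 difference of 0.04, and March5, a mitochondrial ubiquitin ligase gene, at 0.00. Fgfbp3, on the other side of Btaf1, was at -0.18 with overlapping libraries. Beyond it Tnks2 was at 0.06, Ppp1r3c at -0.01 and Hectd2 at 0.05. On the far side of Ide, Kif11 was at the floor in all 9 libraries, Hhex was at 0.19 and Exoc6 at 0.03. Ide and Btaf1 were thus the members of this stretch with non-overlapping libraries. A copy-number difference that includes Ide is known as background among mice of the C57BL/6J substrain. Genomic copy number was not measured here, and whether it differed between the saline and ASO groups was not tested.

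**Figure D2:**
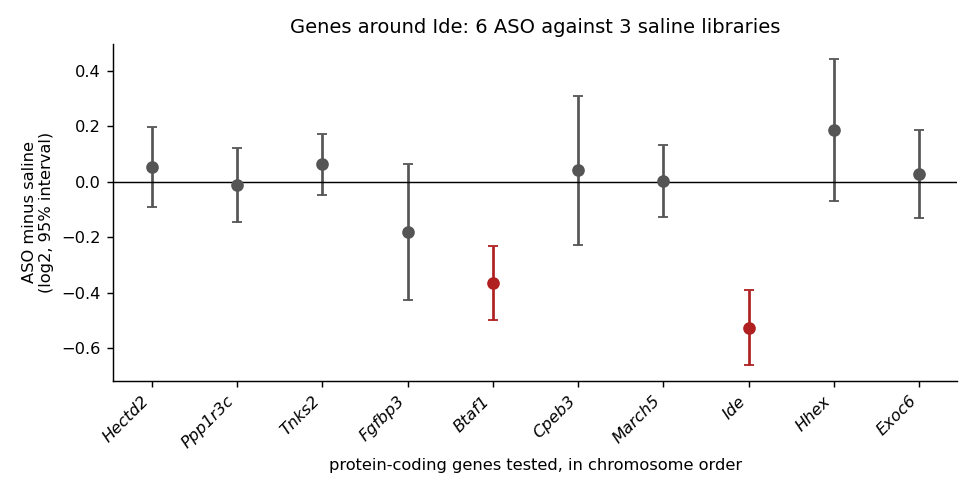
Log2 difference between the 6 ASO and 3 saline libraries (points) with 95% intervals (bars) for the tested protein-coding genes around Ide, in chromosome order, with red for genes whose ASO libraries all lay below saline. Btaf1 at -0.37 and Ide at -0.53 are red, and Cpeb3 and March5 between them lie at 0.04 and 0.00.

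Dao, which encodes D-amino-acid oxidase, a peroxisomal enzyme that degrades D-serine, had the third smallest p. It was at 9.85, 8.96 and 9.70 RPKM in saline, 7.99, 7.55 and 6.73 RPKM after the control ASO and 7.14, 6.91 and 6.34 RPKM after the C9orf72 ASO, with no overlap. The log2 difference was -0.42 (SE 0.07, adjusted p = 0.416, limma), at -0.35 for the control ASO and -0.48 for the C9orf72 ASO.

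The remaining genes with the smallest p had an adjusted p of 0.434 or more and did not pass the threshold. Agt, the angiotensinogen gene of astrocytes, stood at 106.5 to 112 RPKM in saline and at 89.5, 92.0 and 98.5 RPKM (lowest, median, highest) in ASO libraries, a log2 difference of -0.24 for the pooled group and for each ASO alone. Spsb1, a ubiquitin ligase adaptor gene, lay at 9.75 to 9.99 RPKM in saline and 8.13 to 8.77 RPKM with ASO (-0.22). Slc5a11, a sodium-coupled inositol transporter gene, was at 2.19 to 2.48 RPKM and 1.57 to 1.91 RPKM (-0.41). For these 3 genes every ASO library lay below every saline library. Ly6e at -0.24, L3mbtl1 at -0.30 and the endothelial adhesion receptor gene Adgrf5 at -0.44 had the same arrangement of libraries. On the higher side, Arhgef26 went from 8.69 to 10.1 RPKM in saline to 11.1 to 12.2 RPKM with ASO (log2 difference 0.27), and Adgrg6, an adhesion receptor gene, from 1.60 to 1.85 RPKM to 1.99 to 2.37 RPKM (0.32). Neither passed the threshold, and neither had overlapping libraries.

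Of 14831 genes in the table, 4 had all 6 ASO libraries and no saline library at the floor, and 0 had the reverse. The reverse asks for more libraries above the floor, so these counts are not alike. The 4 genes were Mir679, Slc38a11, Fxyd2 and Nkpd1, the last named after its values were seen. They entered the test only through the saline libraries, where they are high, so their p-values give no support for a difference. Mir679 stood at 0.626, 0.632 and 0.979 RPKM in saline, at least 1.49-fold lower with ASO against the limit of 0.5 RPKM. Slc38a11, an amino acid transporter gene, stood at 0.535 to 0.579 RPKM in saline and was at least 1.13-fold lower. Fxyd2, a subunit gene of the sodium pump, stood at 0.517 to 0.598 RPKM and was at least 1.09-fold lower, and Nkpd1 at 0.506 to 0.515 RPKM. All saline values of these genes were close to the limit under which the authors replaced values, and the fitted log2 differences depend on that replacement. None passed the threshold, while all 4 did in limma without trend and robust estimation, where groups at the floor show no spread.

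Mir679 and Mir1982, both among the 20 smallest p, are annotated microRNA hairpins. Their sequences are shown because at their length the limit of 0.5 RPKM stands for few reads. They come from RefSeq on GRCm38.p6, on the plus strand at chr12:109715577-109715650 and chr10:80828797-80828870, with the mature arms in capitals.
Mir679: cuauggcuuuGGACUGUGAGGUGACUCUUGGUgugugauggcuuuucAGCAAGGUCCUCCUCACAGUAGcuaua
Mir1982: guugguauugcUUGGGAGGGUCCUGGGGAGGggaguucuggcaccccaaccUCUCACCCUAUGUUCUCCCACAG
Each hairpin has 74 bases, so that 0.5 RPKM stands for 3.34 to 4.59 reads. Mir1982 was at 1.001, 1.39 and 0.542 RPKM in saline and at the floor in 5 ASO libraries, with control ASO replicate 1 at 0.679 RPKM inside the saline range. RNA-seq values of hairpin genes do not measure the mature microRNA.

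**Figure D3:**
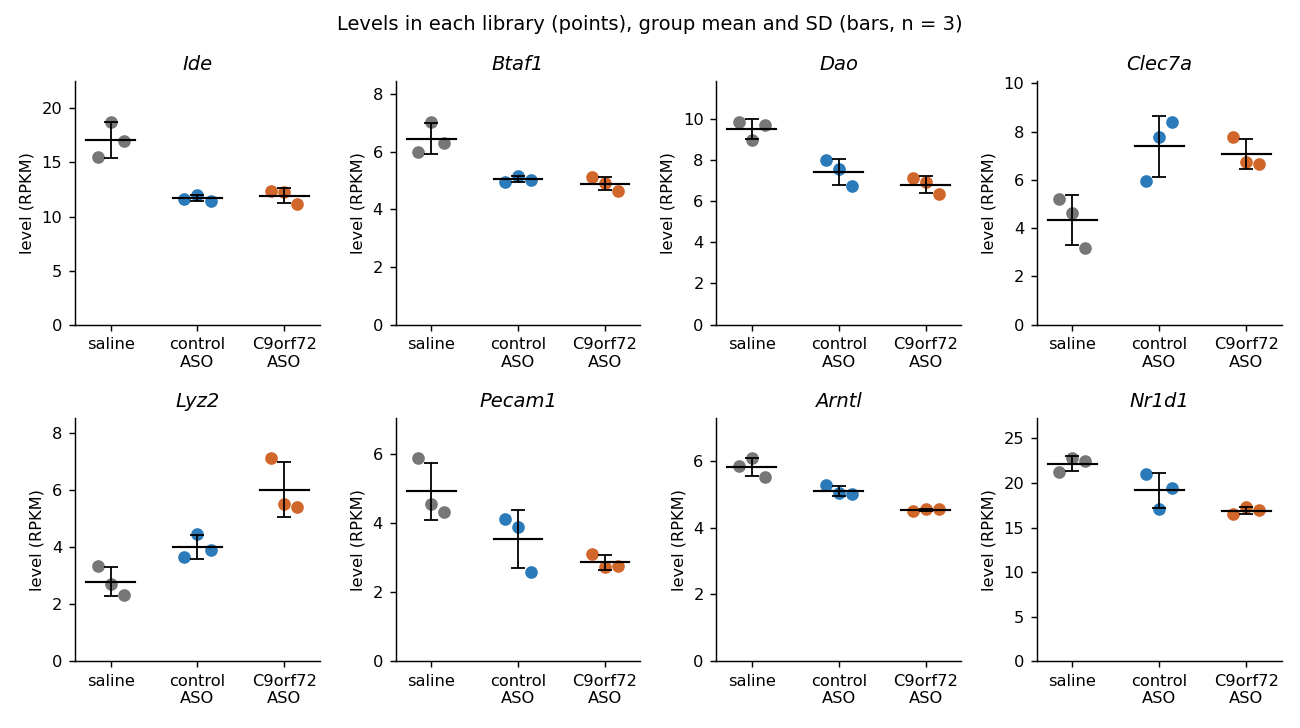
Levels in RPKM (y axes from 0) of 8 genes in each library (points), with the mean (line) and SD (bar) of each group of 3. In Ide, Btaf1 and Dao the libraries of both ASOs lie together below saline, in Clec7a together above it, and in Lyz2 and Arntl each C9orf72 ASO library lies farther from saline than each control ASO library.

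The proteins an ASO meets in the cell were taken first among the gene lists. Of 27 tested genes for RNase H enzymes and nuclear proteins that bind oligonucleotides, none passed the threshold, and the median was 0.00. Rnaseh1, the nuclease that cleaves RNA paired with an ASO, stood at 4.83 to 5.33 RPKM in saline and 4.37 to 5.08 RPKM with ASO (log2 difference -0.09, 95% interval -0.23 to 0.04). Nono, a paraspeckle protein gene, was at -0.01 with an interval of -0.13 to 0.10. The interval of each of these excludes a change of 0.25 in either direction. Npm1, the nucleolar protein nucleophosmin, lay at 118, 134 and 137 RPKM in saline and at 138 to 149 RPKM with ASO, without overlap (0.16, adjusted p = 0.726, limma), and Ssb, the La protein gene, was at 0.15. For the RNase H list, 3 of 27 lay higher and 0 lower at an unadjusted p under 0.05, beside 1.45% higher and 5.38% lower over all genes.

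Of 26 tested genes for uptake and endosomal traffic of oligonucleotides, none passed, and the median was -0.04. Scarb1, a scavenger receptor gene, stood at 4.92 to 5.74 RPKM in saline and 3.99 to 5.005 RPKM with ASO (log2 difference -0.25, adjusted p = 0.726, limma), with 1 ASO library inside the saline range. Ap2m1, a subunit gene of the clathrin adaptor, was wholly below saline at -0.14.

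Genes for innate sensing of nucleic acids showed no called change. None of 22 tested sensor and adaptor genes lay at an unadjusted p under 0.05 in limma, and their median was 0.00. Of 32 tested interferon-stimulated genes none passed the threshold, 2 lay higher and 1 lower at an unadjusted p under 0.05 (1.45% and 5.38% over all genes), and the median was -0.06. Ifit3b was at 6.98, 7.33 and 7.62 RPKM in saline, 7.76 to 8.78 RPKM after the control ASO and 8.38 to 10.2 RPKM after the C9orf72 ASO, without overlap (0.26, adjusted p = 0.726, limma), and Ifit3 was at 0.25. Ifit3 and Ifit3b are near-identical copies, so their separate values are uncertain. Other interferon-induced genes, named after their values were seen, were Ifit1 at 0.01 (95% interval -0.17 to 0.18) and Isg15 at -0.20 (-0.55 to 0.14). The list of cytokines, chemokines and NF-kB targets had 16 tested genes and a median of -0.02, and that of MHC and antigen presentation 13 genes and -0.09, with no call in either.

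Clec7a and Lyz2, genes of microglia and macrophages, were among the genes with the highest differences that had no library at the floor, and neither passed the threshold. Clec7a, which encodes the pattern receptor dectin-1 and marks activated microglia, stood at 5.19, 4.64 and 3.17 RPKM in saline, 5.97, 7.78 and 8.41 RPKM after the control ASO and 7.77, 6.73 and 6.66 RPKM after the C9orf72 ASO. Every ASO library was above every saline library, and the ASOs overlapped each other. The log2 difference was 0.74 (SE 0.14, 95% interval 0.44 to 1.05, adjusted p = 0.591, limma), and that between the ASOs -0.05 (-0.42 to 0.31).

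Lyz2, the macrophage lysozyme gene, stood at 3.35, 2.70 and 2.33 RPKM in saline, 3.65, 4.47 and 3.91 RPKM after the control ASO and 7.12, 5.53 and 5.42 RPKM after the C9orf72 ASO. Saline was lowest and the C9orf72 ASO highest, without overlap between any groups. The pooled log2 difference was 0.80 (SE 0.18, adjusted p = 0.726), with 0.52 for the control ASO and 1.09 for the C9orf72 ASO (adjusted p = 0.0176, limma). The difference between the ASOs was 0.57 (95% interval 0.27 to 0.87, adjusted p = 0.208). Lyz1 is a near-identical copy, so that the level of Lyz2 is uncertain. C3ar1, the C3a anaphylatoxin receptor gene, had the same order at lower levels, 0.508 to 0.528 RPKM in saline, 0.648 to 0.776 RPKM after the control ASO and 0.904 to 1.17 RPKM after the C9orf72 ASO (pooled 0.64, adjusted p = 0.726).

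Microglial lists did not share these sizes. The median of 23 homeostatic genes was 0.09, with 0.00 for the control ASO and 0.24 for the C9orf72 ASO, and 6 lay higher and 1 lower at an unadjusted p under 0.05, beside 1.45% and 5.38% of all genes. The median of 20 activated genes was 0.07, with -0.03 and 0.16, and Clec7a and Lyz2 were the 2 that lay higher. No member of either list passed the pooled threshold. The summed level of the homeostatic list was 304 to 341 RPKM in saline, 311 to 337 RPKM after the control ASO and 376 to 403 RPKM after the C9orf72 ASO. In a bulk tissue, a change in the number of cells of a type and a change in RNA per cell cannot be told apart. Tyrobp, a signalling adaptor gene of microglia, was at 11.5 to 14.7 RPKM in saline, 12.5 to 15.4 RPKM after the control ASO and 19.3 to 21.7 RPKM after the C9orf72 ASO. Its difference between the ASOs was 0.56 (95% interval 0.35 to 0.77, adjusted p = 0.0905, limma). Named after their values were seen, Trem2, a lipid receptor gene of microglia, was at 0.12 for the control ASO and 0.54 for the C9orf72 ASO, and Csf1r, the receptor on which microglia depend, at -0.12 and -0.05.

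Astrocytes, neurons and motor neurons had list medians of 0.04, 0.01 and 0.02 over 22, 34 and 19 tested genes, and 21 genes of reactive astrocytes had 0.01. No member passed. Gfap, the intermediate filament gene of astrocytes, was at 634 to 858 RPKM in saline and 664 to 783 RPKM with ASO (log2 difference -0.02, 95% interval -0.23 to 0.19). Chat, the acetylcholine synthesis gene of motor neurons, was at -0.08 with an interval of -0.25 to 0.09, and Snap25, a synaptic vesicle fusion gene, at 0.02 with an interval of -0.15 to 0.20. The 29 oligodendrocyte and myelin genes had a median of -0.09, which was -0.04 without saline replicate 1, and Mbp, the myelin basic protein gene, stood at -0.19 (95% interval -0.38 to 0.01).

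Genes of blood vessels and their surroundings lay lower in the ASO libraries than any other list of 5 or more tested genes. Of 26 endothelial genes, 25 had a difference below 0, the median was -0.33, and 17 (65.4%) lay lower at an unadjusted p under 0.05, beside 5.38% of all genes. Of 15 tested pericyte and smooth muscle genes, 13 were below 0, the median was -0.32 and 10 (66.7%) lay lower. Of 21 meningeal and matrix genes, 19 were below 0, the median was -0.22 and 6 (28.6%) lay lower. No gene of these lists passed the adjusted threshold (limma). Libraries were wholly below saline for 2 of 26, 4 of 15 and 3 of 21, beside 2.26% of all genes. The medians were -0.23, -0.23 and -0.16 for the control ASO and -0.39, -0.41 and -0.25 for the C9orf72 ASO, in both cases against the same saline libraries.

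Pecam1, an adhesion molecule gene of endothelial junctions, stood at 5.87, 4.55 and 4.32 RPKM in saline, 4.13, 3.89 and 2.60 RPKM after the control ASO and 3.11, 2.73 and 2.76 RPKM after the C9orf72 ASO. No ASO library reached the lowest saline library, and saline replicate 1 was the highest. The log2 difference was -0.61 (SE 0.15, adjusted p = 0.726, limma). Abcb1a, the P-glycoprotein efflux pump gene of the blood-brain barrier, was at 8.28 to 9.05 RPKM in saline and at 4.87 to 7.73 RPKM with ASO (-0.42). Cldn5, the tight junction claudin gene, was at 8.18, 5.59 and 5.73 RPKM in saline and 3.68 to 5.73 RPKM with ASO, which overlap (-0.52). Cdh5 at -0.54 and Eng at -0.48, named after their values were seen, also overlapped.

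Among genes of mural cells, Rgs5, a pericyte regulator of G protein signalling named after its values were seen, was at 46.4, 34.0 and 34.9 RPKM in saline. It was at 32.2, 34.3 and 21.2 RPKM after the control ASO and 23.2, 20.3 and 18.9 RPKM after the C9orf72 ASO. One control ASO library lay inside the saline range (log2 difference -0.64, adjusted p = 0.726, limma). Myl9, a contractile light chain gene of smooth muscle, was at 5.08 to 7.41 RPKM in saline and 4.09 to 5.07 RPKM with ASO (-0.43), and Higd1b, a pericyte gene, at 1.65 to 2.44 RPKM and 1.33 to 1.67 RPKM (-0.42). Col4a1, a basement membrane collagen gene, was at 4.82 to 7.05 RPKM and 3.37 to 4.69 RPKM (-0.47). Lum, a fibroblast proteoglycan gene, was at 0.563 to 0.785 RPKM in saline and at the floor in 5 of 6 ASO libraries. Control ASO replicate 1 held it at 0.521 RPKM. Lum is among the meningeal genes counted as wholly below saline. It entered the test only with the saline libraries, where it is high, so this gives no support for a difference. Its log2 difference of -1.65 became -0.33 with floor values raised to 0.5.

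Saline replicate 1 had the highest medians of these lists. Against the saline mean, the endothelial median was 0.14 in saline replicate 1, and -0.11 and -0.05 in the other saline libraries, beside -0.46 to -0.12 in ASO libraries. Without saline replicate 1 the endothelial median was -0.22 and 7 of 26 genes (26.9%) lay lower at an unadjusted p under 0.05, beside 1.66% of all genes tested in that fit, which was 5.38% with the library. The pericyte median was then -0.24 with 7 of 15 genes lower, and the meningeal median -0.15 with 4 of 21. Without saline replicate 3, 9 of 26 endothelial genes lay lower, beside 4.38% of all genes, and without saline replicate 2, 19 of 26, beside 6.64%. Summed levels overlapped for endothelium (357 to 424 RPKM in saline, 304 to 362 RPKM with ASO) and not for pericytes (90.6 to 115 RPKM, 67.0 to 87.6 RPKM) or meninges (78.7 to 88.8 RPKM, 66.3 to 76.7 RPKM). The 7 tested red blood cell genes summed to 943 to 1032 RPKM in saline and 812 to 3011 RPKM with ASO, with control ASO replicate 1 the highest. How much blood, vessel or meninges the dissected tissue held was not tested.

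**Figure D4:**
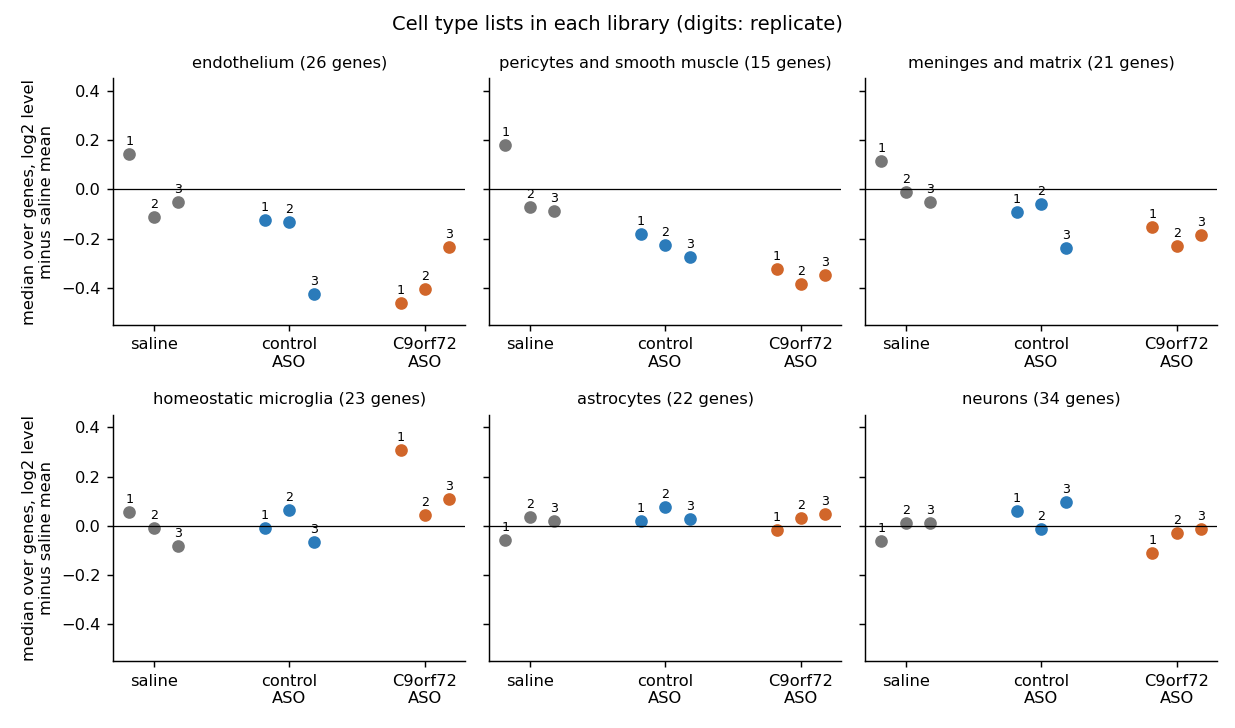
Median over the genes of 6 cell type lists in each library, as the log2 level minus the saline mean of each gene (y axes), with digits for the replicate. Endothelial, pericyte and meningeal medians lie highest in saline replicate 1 and below the other saline libraries in each ASO library, while astrocyte and neuron medians lie near 0 in all groups.

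Genes of the circadian clock, the feedback loop that sets daily rhythms of transcription, had a median of 0.10 over 19 tested, which was 0.01 without saline replicate 1. At an unadjusted p under 0.05, 4 lay higher and 3 lower, beside 1.45% and 5.38% of all genes, and none passed the adjusted threshold. Arntl, the activator BMAL1, was at 5.52 to 6.07 RPKM in saline, 4.99 to 5.28 RPKM after the control ASO and 4.50 to 4.55 RPKM after the C9orf72 ASO (log2 difference -0.27, adjusted p = 0.726, limma). Nr1d1, a repressor of Arntl, was at 21.2 to 22.8 RPKM in saline, 17.1 to 21.1 RPKM after the control ASO and 16.5 to 17.3 RPKM after the C9orf72 ASO (-0.30). For both, all ASO libraries lay below saline. Per3, a period repressor gene, at 0.17 and Bhlhe41, a repressor gene of the loop, at 0.16 lay wholly above saline, and both were picked out with their values in view. Of the 19 genes, 2 thus lay wholly above and 2 wholly below saline, beside 0.929% and 2.26% of all genes. The labels do not give the hour of dissection.

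Stress, housekeeping and injury lists had no member past the pooled threshold. Medians were -0.01 for 31 genes of the unfolded protein and integrated stress response, 0.04 for 21 heat shock genes, 0.02 for 21 genes of oxidative stress and -0.05 for 22 genes of the p53 response, with Cdkn1a, the p53 target p21 named after its values were seen, at -0.04 (95% interval -0.30 to 0.22). The 49 lysosome genes were at 0.00 and the 37 autophagy genes at -0.02. The 23 cholesterol synthesis genes were at -0.02 and the 16 glucocorticoid response genes at -0.01. The 28 immediate early genes were at 0.08, with 0.09 for the control ASO and 0.04 for the C9orf72 ASO. Of these 28, 2 passed the threshold in the limma test between the ASOs, beside 10 of 14430 genes (0.0693%). The 77 cytosolic ribosomal protein genes were at -0.01 for the pooled group, with -0.11 for the control ASO and 0.13 for the C9orf72 ASO, and the 75 oxidative phosphorylation genes at 0.02, with -0.05 and 0.10. Of the other lists, complement had a median of 0.03 over 16 genes and Schwann cells and nerve roots -0.08 over 11. Spinal neuropeptides were at -0.06 over 18 genes (-0.18 for the control ASO, 0.03 for the C9orf72 ASO) and ependyma and choroid plexus at -0.02 over 12 (-0.18 and 0.06). Replication-dependent histones were at -0.03 over 11 genes (-0.12 and 0.09) and oligodendrocyte precursors at -0.08 over 17 (0.02 and -0.20). In these 4 lists, as in ribosomal and oxidative phosphorylation genes, the pooled median joined values on opposite sides of 0. Skeletal muscle had 4 tested genes and a median of -0.15, and border macrophages 3 and -0.10.

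**Figure D5:**
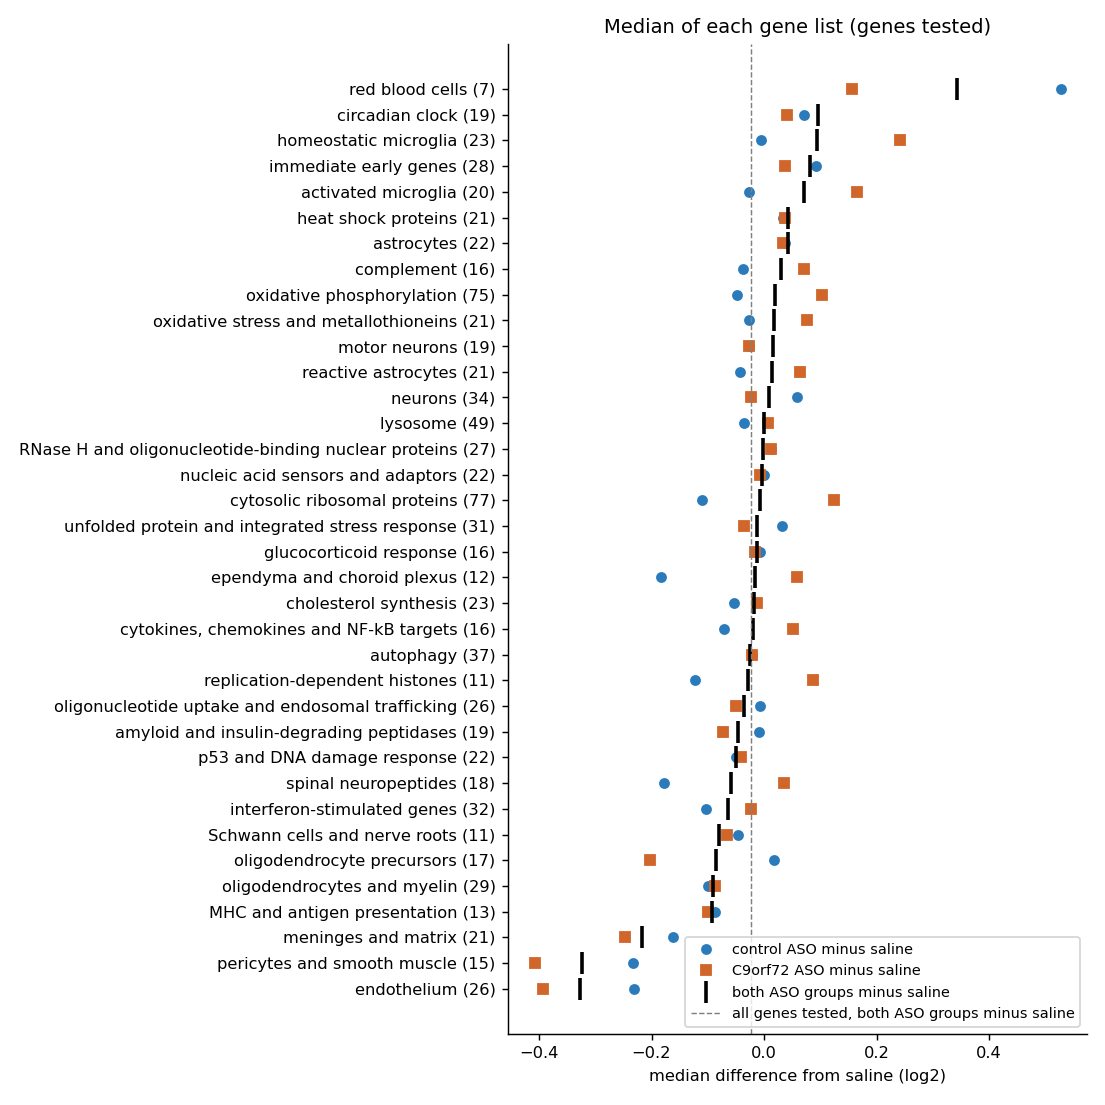
Median log2 difference from saline (x axis) of each list with at least 5 tested genes (y axis, number tested in brackets), for the control ASO, the C9orf72 ASO and both pooled, with a dashed line at the median of all genes (-0.02). Endothelium, pericytes and meninges lie lowest for the pooled group and the C9orf72 ASO, while for the control ASO ependyma (-0.18) and spinal neuropeptides (-0.18) lie below meninges (-0.16), and the pooled medians of the other lists, apart from red blood cells, lie within 0.1 of 0.

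Pooling sets aside what differs between the ASOs. In the test of that difference 10 of 14430 genes (0.0693%) passed, and against saline 1 gene (0.00693%) passed for the control ASO alone and 10 (0.0693%) for the C9orf72 ASO alone. Ide was not the gene that passed for the control ASO (adjusted p = 0.0883, limma), while it passed for the C9orf72 ASO (adjusted p = 0.031). C9orf72, the target of 1 of the ASOs, was at 10.5 to 11.5 RPKM in saline, 10.6 to 11.7 RPKM after the control ASO and 2.68 to 3.40 RPKM after the C9orf72 ASO. Its pooled difference of -0.91 did not pass (SE 0.51, adjusted p = 0.748, limma), since the spread within the pooled group includes that between the ASOs. Tppp, a microtubule-binding protein gene of oligodendrocytes, at a pooled -0.40, and Lars2, the mitochondrial leucyl-tRNA synthetase gene, at 0.37 were likewise not called. The neutrophil gene S100a9 was at 3.68, 2.48 and 1.52 RPKM after the control ASO and at the floor in the other 6 libraries, and S100a8, its partner, at 2.28, 1.96 and 0.537 RPKM and likewise at the floor elsewhere. Other defining genes of neutrophils and lymphocytes were not among the genes tested.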

How the data were processed

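Total RNA was extracted with Trizol and made into strand-specific libraries, per the labels' protocols. The submitters' processing notes name cutadapt 1.2.1, GSNAP and mm9. What counted the reads, and on which annotation, is not given in the sources used here. Deposited values are treated as RPKM computed by the authors. No unit stands in the header, and it was inferred from the steps between low values of short genes, which also gave the implied depth. At 0.5 RPKM a kilobase held 45.2 to 62.1 reads. Symbols matched 14321 of 14831 Ensembl IDs. Positions are given for RefSeq sequences only.

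Differences were tested with limma 3.58.1 (R 4.3.3, statmod 1.5.0, trend and robust estimation) on log2(RPKM + 0.1), as 6 against 3 libraries. A fit of 3 groups gave each ASO against saline and the difference between the ASOs. The pseudocount understates differences of low genes. The replacement of values under 0.5 RPKM by 0.1 can overstate, understate or hide them. The scripts were tested on simulated data. The groups and the 39 gene lists were chosen with earlier results of these data known, so list counts are descriptions without a test. Named were the target, genes past the threshold, those with the smallest p up to 20, the 2 leading members of lists and a set of markers. Neat1, Malat1 and Aif1 were not among the genes tested. Alternatives covered test settings, filters, pseudocounts, scaling, floor values, length and GC trends and each library left out.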

Additional observations from a re-analysis of the deposited data

Results flagged for a closer look

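Among 164 values checked within the 6 ASO libraries, 10 had a library far from the other 5, and chance flags about 1 in 20. Control ASO replicate 1 was the high library for the red blood cell genes. It held 486 RPKM of Hbb-bs (132 to 224 RPKM in the other ASO libraries), 357 RPKM of Hbb-bt (90.6 to 155), 1056 RPKM of Hba-a1 (255 to 451) and 3011 RPKM over the red blood cell list (812 to 1365). These globin genes have near-identical copies, so that their separate values are uncertain. The same library alone held Mir1982 at 0.679 RPKM and Lum at 0.521 RPKM, both at the floor in the other ASO libraries. The floor stands for any value under 0.5 RPKM, so how far Mir1982 and Lum lay from the other libraries is not known. Both flags depend on the value the authors put in place of low ones.

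Control ASO replicate 3 was low for March5 at 26.9 RPKM (29.7 to 31.1 in the others). C9orf72 ASO replicate 1 was high for Csf1r at 12.1 RPKM (10.6 to 10.9) and low for the sum of heat shock genes at 2847 RPKM (2965 to 3023). C9orf72 ASO replicate 3 was high for the sum of replication-dependent histone genes at 96.6 RPKM (70.6 to 79.5).

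For 4 named genes the ASOs differed from each other in the limma test of the difference. The C9orf72 ASO against the control ASO gave log2 differences of -1.84 for C9orf72 (adjusted p = 1.8e-06), -3.65 for S100a9, -0.75 for Tppp (adjusted p = 8.3e-04) and 1.60 for Lars2 (adjusted p = 0.00944). S100a9 entered the test only through the control ASO group, where it is high, and its fitted difference is set by the value the authors put in place of low ones. Against the limit of 0.5 RPKM it was at least 5.13-fold lower after the C9orf72 ASO than after the control ASO.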

How the results depend on the processing

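The pooled comparison called 1 gene. It called 5 in limma without trend and robust estimation (Ide, Mir679, Slc38a11, Fxyd2 and Nkpd1), 2 in the 3-group fit (C9orf72, adjusted p = 7.7e-04, and Ide), 2 with length and GC trends removed (Ide and Btaf1) and 0 with median log ratio scaling (Ide at adjusted p = 0.104). At that 0, 836 genes had an unadjusted p under 0.05. Leaving out 1 library gave 0 to 1 genes, with 1 only without saline replicate 1. The C9orf72 ASO against the control ASO called 10 genes, 19 without trend and robust estimation, 16 without a filter, 18 with length and GC trends removed and 7 to 27 with 1 library left out, with 27 without C9orf72 ASO replicate 3. The cause of these differences was not tested. No result named here changed direction while called.

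List medians of endothelium, pericytes and meninges stayed below 0 in all 20 alternatives, at -0.38 to -0.22, -0.36 to -0.24 and -0.24 to -0.15 with 1 library left out. The red blood cell median of 0.34 was 0.07 without control ASO replicate 1. The limit of 0.5 RPKM, under which values were replaced, bounds low genes before depth does, except for genes as short as the microRNA hairpins. The 3 saline libraries set every difference from saline. No paired analysis was possible because the labels give no replicate numbers, and those used here follow accession order.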
